A study of Papio anubis and Macaca mulatta with 6 samples.

Results

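Laminin and integrin genes were described across the cell classes of the immature primate testis. Members were the genes whose symbol is a laminin chain (LAMA, LAMB or LAMC with a number), an integrin alpha chain (ITGA) or an integrin beta chain (ITGB). There were 36 of them among 34178 annotated genes in the baboon, and 34 among 21356 in the rhesus monkey. The baboon set held 12 laminin chains, 16 alpha and 8 beta integrins, and the rhesus set held 10, 17 and 7. The symbols shared by both sets numbered 32. LAMA1, LAMA5, ITGB3 and ITGAD were listed for the baboon alone and were not analysed here in the rhesus monkey, and the reverse holds for ITGA3 and ITGA10.

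Laminins are secreted as trimers of 1 alpha, 1 beta and 1 gamma chain, and they polymerise into the sheet that carries every basement membrane. Integrins are pairs of 1 alpha and 1 beta chain that span the plasma membrane, bind laminin, collagen, fibronectin or a counter-receptor on another cell, and link it to the actin cytoskeleton. In the testis the basement membrane of the seminiferous cord is laid down between the Sertoli cells inside and the peritubular cells outside, and vessels carry a basement membrane of their own. A laminin of the chains LAMA3, LAMB3 and LAMC3 is also known from the junction of rodent Sertoli cells with elongating spermatids, where it faces ITGA6 and ITGB1, and ITGA6 is widely used to sort spermatogonia.

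Testes came from prepubertal olive baboons (Papio anubis) and rhesus macaques at necropsy, after euthanasia for another purpose, with 2 animals per species. There was no experimental treatment or genotype to compare. Baboon 1 gave libraries 1A and 1B, baboon 2 gave 1 library, rhesus 1 gave 1 library, and rhesus 2 gave libraries 2A and 2B. Values below follow that order. The 2 animals of each species differed in age, but the sources give the ages differently for the 2 species, so no age was used. Tissue was digested with collagenase, washed, which removes interstitial cells, and then digested with trypsin, so the recovered share of a cell class is not its share of the testis. Baboon 2 was prepared with 10x chemistry version 3 and the others with version 2. A difference between animals therefore cannot be told apart from a difference of age, or, in the baboon, of chemistry.

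The libraries held 16875294 to 49803025 unique molecular identifiers (UMIs, each standing for 1 captured RNA molecule), and 23046 baboon and 26480 rhesus cells were called. Cells were put into a class by UMIs of marker genes, none of which is a laminin or an integrin. In the baboon this gave 10404 Sertoli, 4651 stromal, 117 mural (smooth muscle, peritubular myoid or pericyte markers), 235 endothelial, 87 immune and 171 germ cells. The rhesus numbers were 5993, 14051, 292, 559, 213 and 158. Cell totals were uneven: rhesus 1 held 136 of the rhesus germ cells, and libraries 2A and 2B held 12 and 10. The germ markers, which include DDX4 and DAZL, had a median of 1728 to 3274 counts per 1000000 UMIs of a cell (CPM) in germ cells and of at most 64 CPM in the other classes of any library. Mural cells carried stromal markers at a median of 357 to 1313 CPM beside mural markers at 12297 to 18441 CPM. Between 0% and 53.7% of the cells of a class in a library lay near the limits of the gate, the highest share being in Sertoli cells of rhesus 1. Of the 36931 cells in a class, 527 fell into another class when whole clusters were named, and 2245 were marked as possible doublets and were kept. Libraries 2A and 2B shared 109 cell barcodes where chance gives 79.3, and the other pairs shared 1 to 124.

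Levels are given as CPM, the UMIs of a gene per 1000000 UMIs of the class in 1 library. The depth of a class set what could be seen: 3 UMIs equalled 0.0939 CPM in the Sertoli cells of baboon 2 but 39.7 CPM in the 34 immune cells of baboon 1 and 39.2 CPM in the 32 mural cells of rhesus 1. The chemistry counts one end of each RNA, so levels were compared between classes for 1 gene and never between genes or species. For the test, UMIs were summed per animal and class and each class was set against the mean of the other 5 (edgeR quasi-likelihood test with animal as a block, Benjamini-Hochberg adjustment over all genes tested, threshold 0.05). Differences are on the log2 scale with a standard error. The p-values rest on 2 animals per species and on the spread between their classes. A fitted difference of a gene with no UMI in some class depends on the prior count, so CPM are given instead for such genes.

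Of the members, 24 baboon and 17 rhesus genes passed the filter on low counts, which keeps a gene that is well covered in any 1 class and so favours genes that differ. In baboon Sertoli cells 8 of the 24 were higher and 4 lower, where 27.1% and 10.8% of all 11523 genes tested were. In baboon stromal cells 9 were higher and 2 lower (23.2% and 7.97% of all genes). The lower counts depended on the tool: DESeq2 called 11 lower in Sertoli and 6 in stromal cells, against 24% and 13.4% of all genes, and with classes from clusters 8 and 5 were lower (11.3% and 7.77%). Mural cells stood farther from the background, with 14 of 24 higher and 1 lower, against 9.21% and 1.29% of all genes. In endothelial cells 12 were higher and 2 lower, against 17.9% and 5.75%, and none was lower with classes from clusters. Immune cells had 3 higher and 3 lower (8.18% and 3.18% of all genes), and of the 3 lower ones none was called without the animal block and 1 by DESeq2. Germ cells had none higher and 8 lower, where 28.9% of all genes were higher and 23.2% lower.

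The counts of the 17 rhesus members were read in the same way against 8803 genes tested. Sertoli cells had 4 higher and 6 lower (15.3% and 9.47% of all genes), stromal cells 5 and 4 (12.6% and 7.58%), and mural cells 5 and 0 (5.78% and 0.954%). Endothelial cells had 4 and 3 (12.4% and 6.42%), immune cells 4 and 0 (10.8% and 3.17%), and germ cells 0 and 7 (28.8% and 17%). As in the baboon, germ cells had no member called higher. For the 0 lower in mural and in immune cells, 1 member in each had an unadjusted p under 0.05 by edgeR, and DESeq2 called none. In immune cells LAMB2 was called lower with no filter on low counts, with each library as its own sum and without library 2A.

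**Figure D1:**
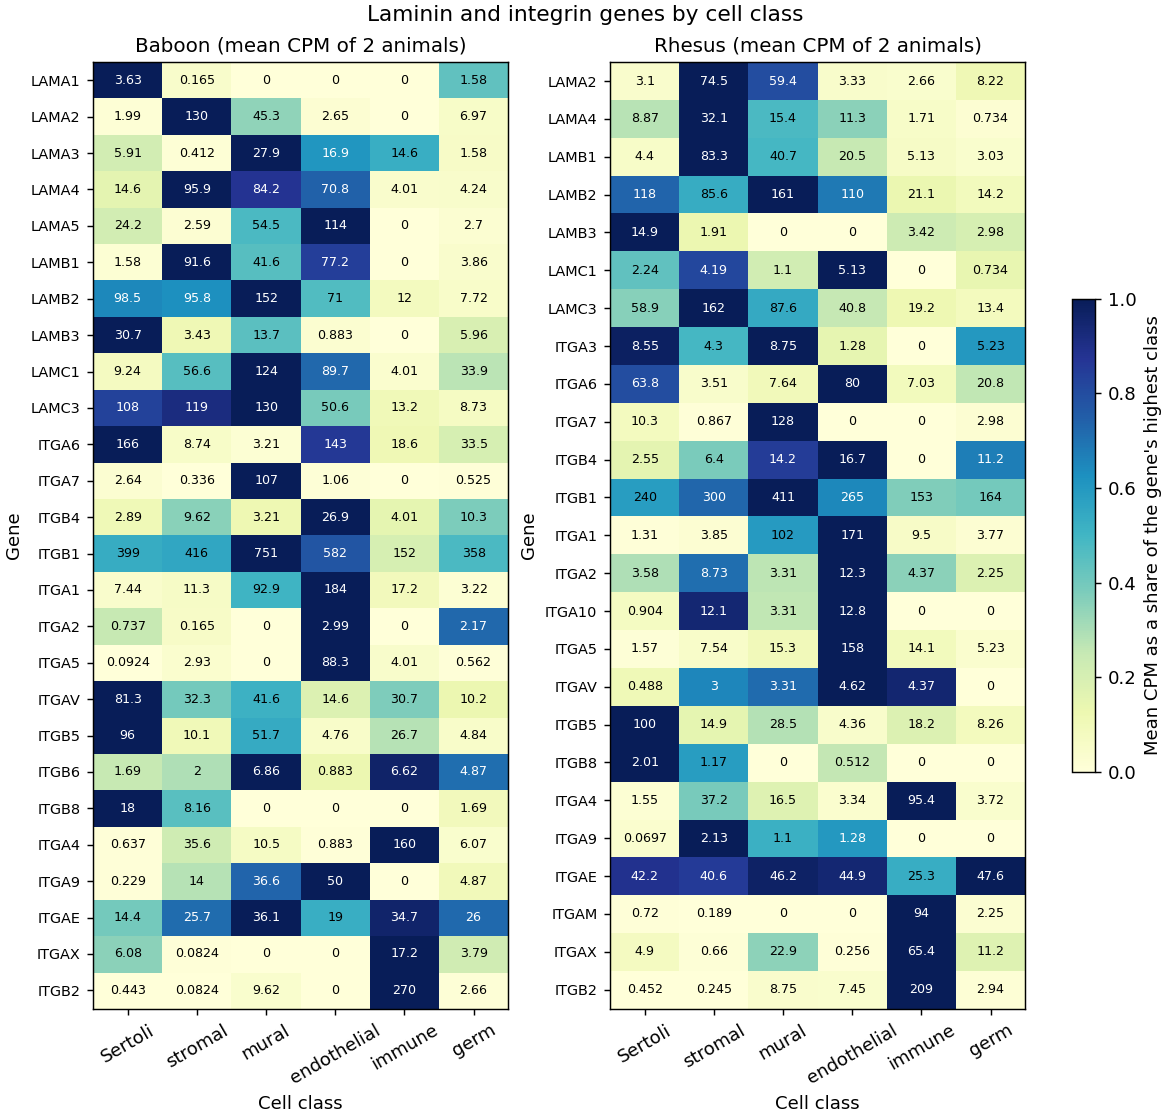
Mean CPM over 2 animals of each member with at least 50 UMIs, by cell class, for the baboon and the rhesus monkey; colour gives the mean as a share of the gene's highest class. Stromal cells hold the highest LAMA2, LAMB1 and LAMA4, Sertoli cells the highest LAMB3 and ITGB5, mural cells ITGA7, endothelial cells ITGA1 and ITGA5, and immune cells ITGB2 and ITGA4 in both species.

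**Figure D2:**
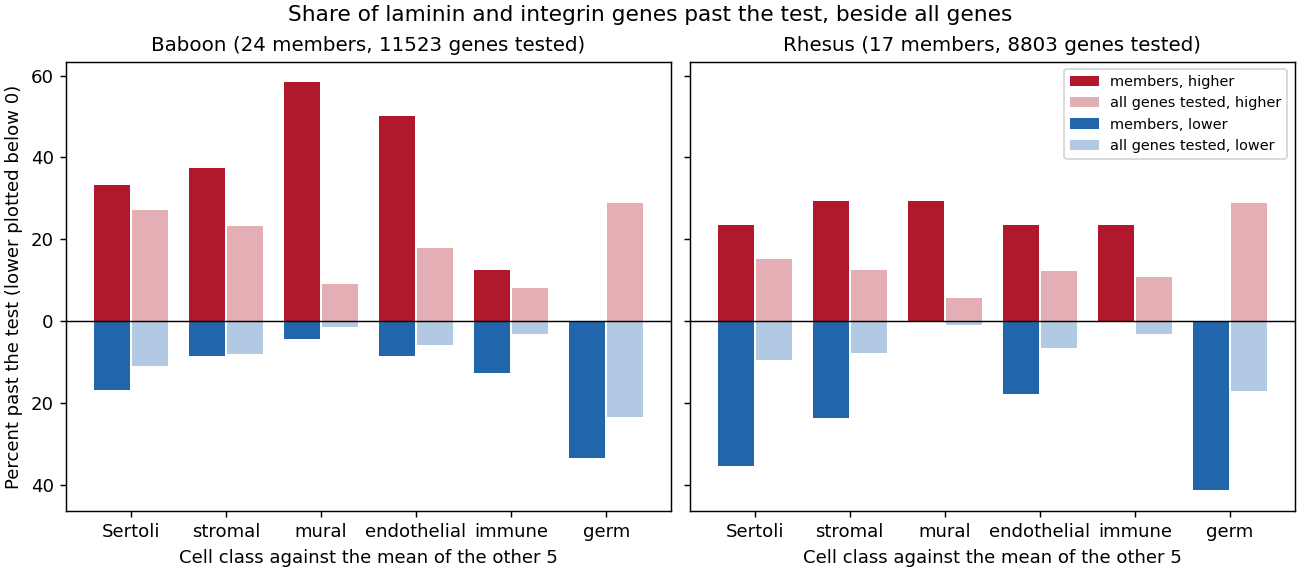
Percent of members (dark) and of all genes tested (pale) that were higher (above 0) or lower (below 0) in each class than in the mean of the other 5. Baboon mural cells show a wide gap above the background (58.3% of members against 9.21% of genes), and germ cells show no member called higher in either species.

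The laminin alpha chains divided by class, and the alpha chain sets which receptors a laminin binds. LAMA2, the alpha chain of muscle and peripheral nerve laminin, was highest in stromal cells, at 94.4, 70.9 and 175 CPM in the baboon libraries and 51.5, 105 and 89.5 CPM in the rhesus libraries. Sertoli cells held at most 3.35 and 6 CPM of it, so the stromal and Sertoli values did not overlap in any library. Stromal cells passed the test in both species (edgeR adjusted p = 1.49e-21 in the baboon; log2 difference 3.43 ± 0.3 (SE), edgeR adjusted p = 5.68e-08 in the rhesus monkey). Mural cells came second with 29.2, 37.4 and 58.5 and 26.2, 113 and 73.1 CPM, and in library 2A they lay above the stromal cells. The mural call was lost in the baboon without the animal block (adjusted p = 0.0687) and with classes from clusters (adjusted p = 0.0546). Stromal markers in the mural cells had medians of 602, 357 and 563 CPM in baboons and 1085, 1299.8 and 1313 CPM in rhesus monkeys, and their part in the mural values was not tested.

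LAMA4, the alpha chain best known from vessel walls, was spread over stromal, mural and endothelial cells in the baboon. Its stromal values were 76, 80.6 and 114 CPM, its mural values 39, 74.9 and 117 and its endothelial values 84.1, 44.9 and 74.1, and these 3 ranges overlapped. All 3 classes passed the test (log2 difference 2.59 ± 0.25 (SE), edgeR adjusted p = 1.59e-12 in stromal cells). By mean over animals, rhesus stromal cells were highest and mural cells second. Set against endothelial cells alone, stromal cells held 34.1, 28.5 and 31.8 CPM against 12.3, 13.5 and 6.57, which did not overlap. Only stromal cells were called higher in the rhesus monkey (log2 difference 2.66 ± 0.39 (SE), edgeR adjusted p = 5.59e-05). Germ cells were lower in both species, with 1.7, 0 and 7.35 and 1.47, 0 and 0 CPM.

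LAMA5, the broad epithelial and endothelial alpha chain, was measured in the baboon. It was highest in endothelial cells, at 106, 54.9 and 143 CPM, followed by mural cells at 58.5, 56.2 and 51.2 and Sertoli cells at 22.4, 21.6 and 26.2. Stromal cells held 3.2, 2.78 and 2.14 CPM, below the Sertoli cells in every library. The test called all 3 higher classes (edgeR adjusted p = 1.92e-15 in endothelial cells, edgeR adjusted p = 9.94e-04 in Sertoli cells), but with classes from clusters the Sertoli call was lost (adjusted p = 0.192). LAMA1, the alpha chain of early embryonic basement membranes, was present at 2.29, 2.12 and 5.04 CPM in Sertoli cells, with 0 UMIs in mural, endothelial and immune cells. Those classes are shallow, and LAMA1 was not tested in the main fit. With no filter on low counts, it was called higher in Sertoli cells.

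LAMA3, the alpha chain of epithelial anchoring laminin, gave 4.72, 7.48 and 6.1 CPM in baboon Sertoli cells and 0, 0 and 0.824 in stromal cells, which were lower than the mean of the others (log2 difference -3.86 ± 0.76 (SE), edgeR adjusted p = 5.97e-05). Its highest values were in mural cells, at 9.75, 37.4 and 36.6 CPM, with 7.31, 19.96 and 21.2 CPM in endothelial cells. The mural and endothelial calls were lost without the animal block (adjusted p = 0.052 and adjusted p = 0.0507). The rhesus classes together held 18 UMIs of LAMA3.

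Among the beta chains, LAMB1 followed LAMA2 to the stromal cells, LAMB2 was shared by the somatic classes other than immune cells, and LAMB3 marked Sertoli cells. LAMB1, the common beta chain, reached 64.8, 89 and 109.7 and 72, 90.7 and 98.8 CPM in stromal cells (edgeR adjusted p = 1.22e-16 in the baboon; log2 difference 3.35 ± 0.36 (SE), edgeR adjusted p = 1.01e-06 in the rhesus monkey). Sertoli cells held 0.715, 1.25 and 2.25 and 3.08, 6 and 5.42 CPM. In the baboon, endothelial cells held 40.2, 34.9 and 116 CPM, as high as stromal cells in baboon 2 but not in baboon 1. In the rhesus monkey the second class was mural, at 13.1, 77.1 and 60.2 CPM, and DESeq2 gave an adjusted p of 0.0496 for it.

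LAMB2, the beta chain of muscle synapse and kidney filter laminin, gave 101, 102 and 95.7 CPM in baboon Sertoli cells and 102, 84.8 and 96.1 in stromal cells. Mural cells were highest at 107, 149.8 and 183 CPM. Rhesus mural cells gave 209, 127 and 98.8 CPM and Sertoli cells 91.8, 138 and 149 CPM, and in libraries 2A and 2B the Sertoli value lay above the mural one. Germ cells had the lowest mean, at 13.6, 6.62 and 4.2 and 10.3, 4.57 and 45 CPM, and were lower by 3.65 ± 0.5 (log2, SE; edgeR adjusted p = 2.19e-08) and 2.69 ± 0.45 (log2, SE; edgeR adjusted p = 7.58e-05). Free RNA outside cells also held much LAMB2, at 148, 33.2 and 206 and 58.3, 152 and 173 CPM, and its part in the low values of germ and immune cells was not tested.

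LAMB3, the beta chain known from skin anchoring laminin and from the Sertoli cell junction named above, was highest in Sertoli cells in every library, at 24.7, 26.7 and 35.9 CPM in baboons and 14.7, 13.1 and 17.1 CPM in rhesus monkeys. Stromal cells held 2.4, 5.56 and 3.3 and 3.51, 0.144 and 0.474 CPM. The mean over animals was 30.7 ± 7.42 CPM (SD, n = 2 animals) in baboon Sertoli cells, and the class passed the test (edgeR adjusted p = 5.84e-10). Rhesus LAMB3 was under the filter and was not tested, but 199 of its 239 UMIs were in Sertoli cells. LAMB4 gave 1 UMI in each species.

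The gamma chains LAMC1 and LAMC3 were each shared by several somatic classes. LAMC3, a gamma chain found outside the usual trimers and known from the testis, gave 131, 129.7 and 85.3 CPM in baboon Sertoli cells, 111, 108 and 128 in stromal and 117, 149.8 and 132 in mural cells. All 3 were higher than the mean of the other classes (log2 difference 1.9 ± 0.23 (SE), edgeR adjusted p = 2.39e-09 in stromal cells), and their libraries overlapped. Rhesus stromal cells were highest in every library, at 227, 99.3 and 95.3 CPM (log2 difference 2.09 ± 0.3 (SE), edgeR adjusted p = 4.21e-05), and Sertoli cells held 83, 35.7 and 33.7 CPM. Rhesus 1 lay above both libraries of rhesus 2 in each of these classes. Germ cells were lower in both species (log2 difference -3.3 ± 0.59 (SE), edgeR adjusted p = 5.36e-06; log2 difference -2.42 ± 0.54 (SE), edgeR adjusted p = 0.00113). Free RNA held 127, 49.8 and 116 and 83.4, 73.2 and 78.4 CPM of it.

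LAMC1, the gamma chain of nearly all laminins, was higher in mural, endothelial and stromal cells than in Sertoli cells of the baboon. It gave 195, 93.6 and 87.8 CPM in mural, 80.5, 109.8 and 86.5 in endothelial and 58.4, 47.3 and 58.9 in stromal cells, against 9.72, 9.35 and 8.89 in Sertoli cells. The Sertoli values lay below these 3 classes in every library (log2 difference -2.12 ± 0.63 (SE), edgeR adjusted p = 0.00571), and mural cells were higher (log2 difference 2.45 ± 0.39 (SE), edgeR adjusted p = 2.32e-06). The rhesus classes together held 137 UMIs, with at most 6.17 CPM in any class of a library, and no test was made.

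**Figure D3:**
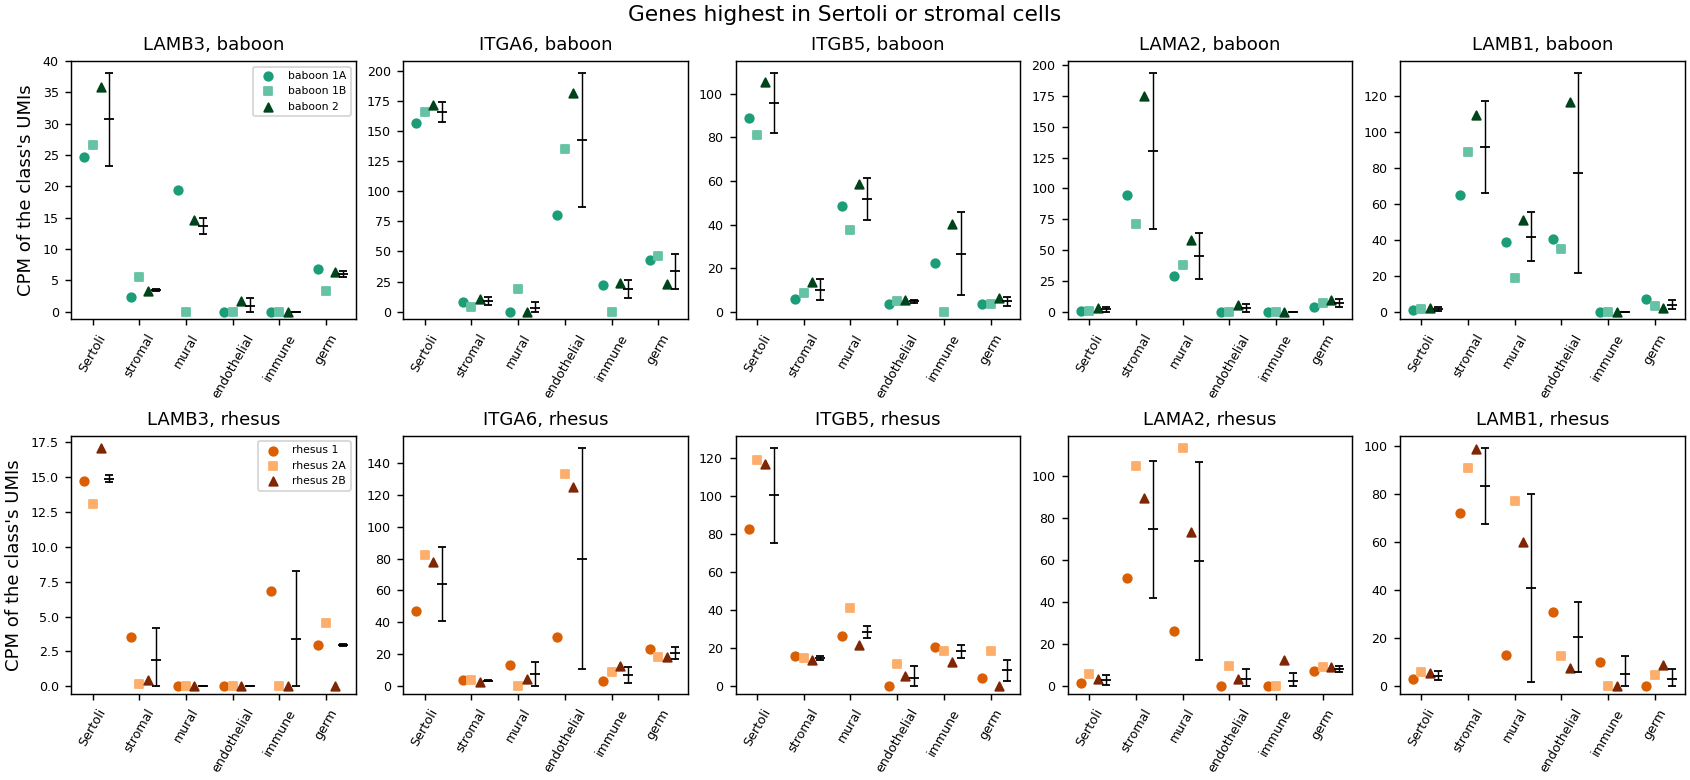
CPM of 5 members in each class, 1 point per library, with the mean ± SD of the 2 animals in black (baboon above, rhesus below). LAMB3 and ITGB5 are highest in Sertoli cells in all 6 libraries, LAMB1 and LAMA2 in stromal cells except where mural or endothelial cells of a library pass them, and ITGA6 is shared by Sertoli and endothelial cells.

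Of the integrins that bind laminin, ITGA6 belonged to the Sertoli and endothelial cells and ITGA7 to the mural cells. ITGA6, the alpha chain that pairs with ITGB1 or ITGB4, gave 157, 166 and 172 CPM in baboon Sertoli cells and 80.5, 135 and 182 in endothelial cells (log2 difference 3.09 ± 0.23 (SE), edgeR adjusted p = 5.87e-16 and log2 difference 2.91 ± 0.29 (SE), edgeR adjusted p = 3.88e-12). Those classes overlapped, and baboon 2 was higher in endothelial cells. Rhesus values were 47.4, 82.4 and 77.9 CPM in Sertoli and 30.8, 133 and 125 in endothelial cells, with the same overlap (log2 difference 2.32 ± 0.35 (SE), edgeR adjusted p = 5.19e-05 and log2 difference 3.09 ± 0.39 (SE), edgeR adjusted p = 7.62e-06).

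In germ cells ITGA6, a surface marker used to enrich spermatogonia, gave 42.5, 46.3 and 23.1 CPM in baboons and 23.5, 18.3 and 18 CPM in rhesus monkeys. These values lay above the stromal cells of the same library (8, 4.17 and 10.9 and 3.85, 3.6 and 2.69 CPM) and below the Sertoli cells in all 6 libraries. Germ cells did not pass the test against the mean of the other classes (log2 difference -0.19 ± 0.44 (SE), edgeR adjusted p = 0.782; log2 difference 0.59 ± 0.54 (SE), edgeR adjusted p = 0.388). Free RNA held 63.6, 33.2 and 65 and 10.2, 22.6 and 20.7 CPM, above the germ cells in libraries 1A, 2A, 2B and baboon 2. Its part in the germ cell values was not tested.

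ITGA7, the laminin receptor of muscle, was higher in mural cells than in any other class of every library. It gave 97.5, 93.6 and 117 and 105, 154 and 150.4 CPM there, and the mural cells passed the test (edgeR adjusted p = 4.60e-12; edgeR adjusted p = 7.63e-08). Sertoli cells came second at 3.22, 2.49 and 2.32 and 5.67, 16.9 and 12.8 CPM, and stromal cells held at most 0.8 and 1.42 CPM. The rhesus Sertoli cells were called higher (edgeR adjusted p = 0.00658), which was lost with classes from clusters (adjusted p = 0.134). ITGA3, the other laminin-binding alpha chain, was measured in the rhesus monkey at 9.71, 8.19 and 6.56 CPM in Sertoli and 13.1, 9.07 and 0 in mural cells, and was not tested.

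ITGB4, the beta chain of hemidesmosomes, pairs with ITGA6. It was highest in endothelial cells in the baboon, at 40.2, 34.9 and 15.9 CPM (log2 difference 2.38 ± 0.57 (SE), edgeR adjusted p = 0.00106). Rhesus endothelial cells gave 24.7, 9.64 and 7.66 CPM and were not called, with 26.2, 0 and 4.3 CPM in mural and 13.2, 13.7 and 0 in germ cells. Sertoli cells, which had high ITGA6, held 2.43, 2.37 and 3.38 and 1.62, 3.55 and 3.42 CPM of ITGB4. ITGB1, the beta chain of most matrix integrins, was detected in every class of every library. Mural cells were highest in the baboon, at 507, 655 and 944 CPM, and immune cells lowest, at 88.6, 65.7 and 224. Baboon 2 lay above both libraries of baboon 1 in all 6 classes, and the mural call (log2 difference 1.19 ± 0.18 (SE), edgeR adjusted p = 5.14e-07) was lost without the animal block (adjusted p = 0.0751). Rhesus mural cells gave 510.2, 318 and 305 CPM, against 222, 327 and 286 in endothelial cells, which lay above the mural value in library 2A, and did not pass the test (log2 difference 0.69 ± 0.27 (SE), edgeR adjusted p = 0.167).

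ITGA1, a collagen-binding chain that pairs with ITGB1, gave 135, 135 and 233 CPM in baboon and 123, 207 and 233 CPM in rhesus endothelial cells. Mural cells came next with 48.7, 149.8 and 102 and 170.1, 45.4 and 21.5 CPM, above the endothelial value in libraries 1B and rhesus 1. Endothelial cells (log2 difference 3.91 ± 0.24 (SE), edgeR adjusted p = 2.09e-19; log2 difference 4.88 ± 0.4 (SE), edgeR adjusted p = 2.13e-08) and mural cells (log2 difference 2.7 ± 0.42 (SE), edgeR adjusted p = 1.64e-06; log2 difference 2.99 ± 0.6 (SE), edgeR adjusted p = 0.00226) were higher in both species. Sertoli cells held 7.22, 7.73 and 7.48 and 0.809, 2.18 and 1.43 CPM and were lower (log2 difference -1.71 ± 0.36 (SE), edgeR adjusted p = 9.86e-05; log2 difference -3.78 ± 0.67 (SE), edgeR adjusted p = 2.49e-04).

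ITGA2, the receptor for fibrillar collagen next to ITGA1 on the chromosome (a gap of 35.6 kb in Panubis1.0 and 28.8 kb in Mmul_10), gave few UMIs. Endothelial cells gave 0, 9.98 and 1.77 and 18.5, 4.82 and 7.66 CPM, and rhesus stromal cells 5.78, 11.1 and 12.3. ITGA10, a cartilage collagen receptor measured in the rhesus monkey, gave 8.27, 16.4 and 15.3 CPM in stromal and 6.17, 18.3 and 20.8 in endothelial cells, which overlapped. ITGA11 gave 3 baboon and 14 rhesus UMIs.

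ITGA5, ITGAV and ITGA8 recognise ligands with the sequence arginine, glycine and aspartate, and their highest classes differed. ITGA5, the fibronectin receptor chain, gave 95.1, 99.8 and 79.4 CPM in baboon and 98.7, 218 and 216 CPM in rhesus endothelial cells. Sertoli cells held at most 0.125 and 3.27 CPM, and no other class of any library passed 37.9 CPM. The endothelial cells passed the test (edgeR adjusted p = 2.95e-16; log2 difference 4.78 ± 0.35 (SE), edgeR adjusted p = 4.26e-09).

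ITGAV and its partners ITGB5 and ITGB8, which bind vitronectin and latent TGF-beta, were highest in Sertoli cells in the baboon. ITGAV gave 71.8, 74.7 and 89.7 CPM there, above the stromal cells at 24, 16.7 and 43.4 in every library (log2 difference 1.85 ± 0.21 (SE), edgeR adjusted p = 2.38e-10). ITGB5 gave 89.1, 81.3 and 106 CPM in baboon and 82.6, 119 and 117 CPM in rhesus Sertoli cells (log2 difference 2.92 ± 0.22 (SE), edgeR adjusted p = 2.41e-16; log2 difference 2.71 ± 0.26 (SE), edgeR adjusted p = 2.31e-07). Its second class was mural in both species, at 48.7, 37.4 and 58.5 and 26.2, 40.8 and 21.5 CPM, below the Sertoli cells in every library. Endothelial cells were lower, with at most 5.3 and 11.6 CPM, though the baboon call was lost with classes from clusters (adjusted p = 0.605).

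ITGB8 gave 18, 17 and 18.5 CPM in Sertoli and 7.2, 4.17 and 10.2 in stromal cells, and 0 UMIs in mural, endothelial and immune cells. The edgeR call in Sertoli cells (edgeR adjusted p = 3.10e-07) was lost with DESeq2, at an adjusted p of 0.453. Rhesus levels of ITGAV and ITGB8 rested on 92 and 56 UMIs over all classes, with 0, 0.819 and 1.14 and 0.809, 2.46 and 3.99 CPM in Sertoli cells, and stromal cells held 73 of the ITGAV UMIs. ITGB6, the epithelial partner of ITGAV, gave 1.5, 0.748 and 2.16 CPM in baboon Sertoli cells and 0 UMIs in the rhesus classes. ITGA8, which binds nephronectin, gave 18 baboon UMIs, and mural cells held 9 of them, at 29.2, 37.4 and 29.3 CPM. In the rhesus monkey it gave 43 UMIs and was not tested.

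ITGA9, which binds tenascin and VCAM1, was highest by mean in endothelial and then mural cells in the baboon. It gave 47.5, 79.9 and 38.8 CPM in endothelial and 39, 74.9 and 21.9 in mural cells (edgeR adjusted p = 3.04e-09; edgeR adjusted p = 0.00108). Stromal cells were also called, at 15.2, 11.1 and 14.3 CPM, and Sertoli cells held at most 0.499. The rhesus classes held 54 UMIs, with 2.15, 2.45 and 1.74 CPM in stromal cells.

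**Figure D4:**
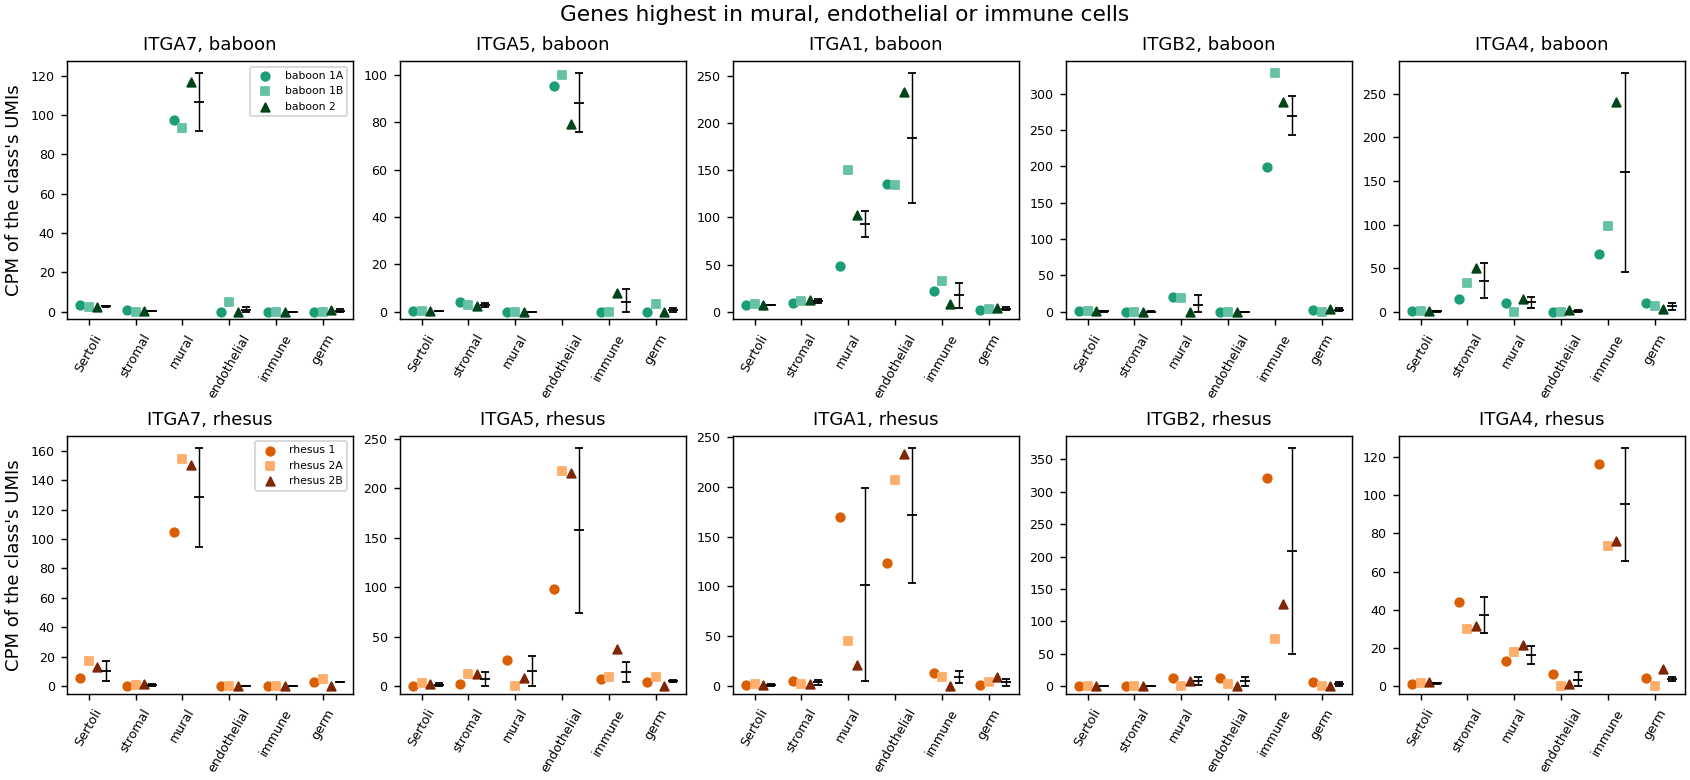
CPM of 5 members in each class, 1 point per library, with the mean ± SD of the 2 animals in black (baboon above, rhesus below). ITGA7 is highest in mural cells, ITGA5 in endothelial cells and ITGB2 in immune cells in all 6 libraries, ITGA1 is shared by endothelial and mural cells, and ITGA4 is highest in immune cells with stromal cells second.

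Among the leukocyte integrins, ITGB2 and ITGA4 were highest in immune cells in all 6 libraries. ITGB2, the beta chain shared by the leukocyte alpha chains, gave 199, 329 and 289 CPM in baboons and 321, 73.5 and 126 CPM in rhesus monkeys (edgeR adjusted p = 3.23e-17; log2 difference 7.18 ± 0.36 (SE), edgeR adjusted p = 9.43e-12). Sertoli and stromal cells held at most 0.786 and 0.546 CPM. ITGA4, which with ITGB1 or ITGB7 binds VCAM1 and fibronectin, gave 66.4, 98.6 and 240.5 and 116, 73.5 and 75.8 CPM in immune cells (log2 difference 5.37 ± 0.49 (SE), edgeR adjusted p = 9.98e-13; log2 difference 4.55 ± 0.41 (SE), edgeR adjusted p = 5.88e-08).

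Stromal cells also held ITGA4, at 14.4, 33.4 and 49.96 and 43.8, 29.8 and 31.5 CPM, and they were higher than the mean of the other classes in both species (log2 difference 2.78 ± 0.34 (SE), edgeR adjusted p = 2.57e-09; log2 difference 2.46 ± 0.32 (SE), edgeR adjusted p = 1.46e-05). The immune value lay above the stromal one in all 6 libraries. Sertoli cells were lower, with 0.286, 0.249 and 1 and 1.3, 1.64 and 2 CPM (log2 difference -4.27 ± 0.92 (SE), edgeR adjusted p = 1.49e-04; log2 difference -3.13 ± 0.55 (SE), edgeR adjusted p = 2.29e-04).

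The alpha partners of ITGB2 were better covered in the rhesus monkey, which gave 213 immune cells against 87. ITGAM, the complement receptor chain of myeloid cells, gave 92.3, 101 and 88.4 CPM in rhesus immune cells and at most 4.57 CPM in any other class of a library (edgeR adjusted p = 9.37e-08). ITGAX, a chain of dendritic cells and macrophages, gave 61.6, 110.3 and 12.6 CPM (log2 difference 4.86 ± 0.62 (SE), edgeR adjusted p = 6.50e-06). In library 2B the germ cells, with 45.0 CPM from 10 cells, lay above the immune cells. Split by markers, the 55 lymphoid cells, all of rhesus 1, held 23 of the 30 rhesus immune UMIs of ITGAL, the lymphocyte chain, and 1 of the 45 of ITGAM. The 156 myeloid cells held the other 7 and 44. Within rhesus 1, ITGB2 gave 524 CPM in the lymphoid and 196 CPM in the myeloid cells.

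In the baboon, ITGAM and ITGAL gave 24 and 20 UMIs over all classes and were not tested. Baboon ITGAX was highest in immune cells by mean, at 44.3, 0 and 8.02 CPM from 3 UMIs. It gave 5.29, 6.86 and 6.29 CPM in Sertoli cells, which held 330 of its 341 UMIs, against at most 0.165 CPM in stromal cells. With no filter on low counts, ITGAX was called higher in Sertoli cells. ITGB2, without which ITGAX does not reach the surface, stayed at or under 0.786 CPM in the same Sertoli cells. ITGAX lies 1.63 kb from ITGAD and 15.9 kb from ITGAM on baboon chromosome 18, and reads of neighbouring or similar genes could not be separated here. ITGB7, the gut-homing beta chain, gave 28 baboon UMIs, with 44.3, 0 and 48.1 CPM in immune cells and at most 4.99 CPM in any other class of a library.

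ITGAE, the alpha chain of tissue-resident lymphocytes, was not highest in immune cells in either species. By mean over animals, ITGAE was highest in rhesus germ cells, with mural cells second, and neither class was called higher for it. The germ mean gives the 22 cells of rhesus 2 the same weight as the 136 cells of rhesus 1. The mural mean likewise rests in part on the 32 cells of rhesus 1, where 1 UMI equalled 13.1 CPM. Baboon ITGAE was highest in mural cells, with immune cells second. In the rhesus monkey it gave 27.7, 55.7 and 57.6 CPM in Sertoli, 35.9, 44.8 and 45.7 in stromal and 23.9, 36.8 and 12.6 in immune cells, and free RNA held 32.8, 55.1 and 54.2 CPM, above the immune cells in every library. In the baboon, Sertoli cells gave 5.79, 4.37 and 23.5 CPM, and in stromal, mural, immune and germ cells too baboon 2 lay above both libraries of baboon 1. Sertoli cells were called lower there (log2 difference -0.91 ± 0.29 (SE), edgeR adjusted p = 0.0101), which was lost without the animal block (adjusted p = 0.408).

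ITGB2, ITGA4, ITGAM and ITGAX were the members higher in rhesus immune cells. The 300 bases before the annotated starts of ITGB2 and ITGA4 (RefSeq, Mmul_10, gene strand) are shown because both genes were higher in immune cells of both species. Capitals mark GAGGAA or its complement TTCCTC, the core of sites bound by the myeloid and lymphoid factor PU.1, searched on both strands. They lie at chr3:1782481-1782780 and chr12:68549538-68549837.
ITGB2: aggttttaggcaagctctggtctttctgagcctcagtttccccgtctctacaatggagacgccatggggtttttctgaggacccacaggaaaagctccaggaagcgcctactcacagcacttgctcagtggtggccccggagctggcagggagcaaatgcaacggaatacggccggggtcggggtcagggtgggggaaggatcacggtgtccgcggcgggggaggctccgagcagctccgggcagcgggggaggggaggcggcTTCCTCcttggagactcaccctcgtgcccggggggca
ITGA4: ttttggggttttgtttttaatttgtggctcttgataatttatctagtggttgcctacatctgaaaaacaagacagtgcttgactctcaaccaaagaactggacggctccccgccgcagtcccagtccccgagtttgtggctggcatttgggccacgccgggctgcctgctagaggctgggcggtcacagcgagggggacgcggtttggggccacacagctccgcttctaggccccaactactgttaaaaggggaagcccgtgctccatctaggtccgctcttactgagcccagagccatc
The motif was found in 1 of these 2 windows, that of ITGB2, at 37 to 32 bases before the start and on the opposite strand. Of 20768 such windows of protein-coding genes, 25.6% hold it. The starts follow the annotation, and which start these cells use was not measured.

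No tested member was called higher in germ cells than in the mean of the other classes. Rhesus ITGAE had its highest mean in germ cells without such a call. None of the 24 baboon or 17 rhesus members was higher in germ cells by edgeR at the adjusted threshold, none had an unadjusted p under 0.05 in that direction, and DESeq2 called none. ITGAM, under the filter in the baboon, gave 13.6, 3.31 and 5.25 CPM in germ cells and was called higher there with no filter, with classes from clusters and without library 1A. Members lower in both species were ITGA1, ITGB1, ITGB5, LAMA4, LAMB2 and LAMC3. The median difference over members was -1.31 in baboons and -0.80 in rhesus monkeys, against 0.15 and 0.20 over all genes. ITGB1 gave 296, 215 and 447 and 148, 133 and 270.1 CPM in germ cells and was lower by 0.64 ± 0.17 (log2, SE; edgeR adjusted p = 0.00172) and 0.8 ± 0.28 (log2, SE; edgeR adjusted p = 0.0259). The baboon call on ITGB1 was lost without the animal block (adjusted p = 0.197). LAMC1 kept 34, 6.62 and 43.1 CPM in baboon germ cells, above the Sertoli cells in libraries 1A and 2. ITGB5 fell short of the Sertoli cells in every library, at 3.4, 3.31 and 6.3 and 4.4, 18.3 and 0 CPM.

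Other genes of the basement membrane and of integrin adhesion were counted in the same fits, from lists chosen by function. Of 10 basement membrane partners of laminin, 9 baboon and 5 rhesus genes were tested. In baboon mural cells 7 were higher, with a median difference of 3.47 against 0.01 over all genes, and in endothelial cells 6 were higher (median 3.1 against 0.16). None was lower in either class by edgeR, with 0 at an unadjusted p under 0.05 and 0 by DESeq2. Of all genes, 9.21% were higher in baboon mural and 17.9% in endothelial cells. Rhesus endothelial cells had 4 of 5 higher (12.4% of all genes), and rhesus mural cells 2 of 5 (5.78% of all genes). Germ cells had 2 of 9 lower in baboons, near the 23.2% of all genes (5 by DESeq2), and 4 of 5 in rhesus monkeys (17% of all genes). HSPG2, the heparan sulfate proteoglycan perlecan, gave 691, 504 and 842 and 475, 829.8 and 757 CPM in endothelial cells. NID1, the nidogen that ties laminin to collagen IV, gave 118, 136 and 140.0 and 194, 244 and 246 CPM in stromal and at most 13.1 CPM in Sertoli cells, the same side as LAMA2 and LAMB1.

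The collagen IV chains COL4A3 to COL4A6 divided by class in the baboon, while COL4A1 and COL4A2 were shared by the somatic classes other than immune cells. COL4A2 gave 177, 193 and 159 CPM in Sertoli and 90.4, 87.6 and 129 in stromal cells. Mural cells held 370, 449 and 373 CPM of COL4A2, and endothelial cells 212, 155 and 268. COL4A1 was also highest in mural cells, at 361, 412 and 417 CPM. COL4A3 and COL4A4, the chains of kidney and other specialised membranes, were higher in Sertoli cells, at 14.1, 16 and 23.4 and 10.2, 10.1 and 23 CPM. They were higher in endothelial cells too, at 29.3, 34.9 and 56.5 and 18.3, 9.98 and 58.2 CPM. COL4A5 and COL4A6 were higher in stromal and in mural cells, but their mural values rested on few UMIs. In mural cells 3 UMIs equalled 19.2 CPM in baboon 1 and 21.9 CPM in baboon 2. Stromal cells gave 23.2, 26.4 and 66.3 and 11.2, 20.9 and 41.4 CPM, mural cells 0, 18.7 and 65.8 and 29.2, 0 and 7.32 CPM, and Sertoli cells at most 1.63 CPM of either. In rhesus Sertoli cells COL4A3 gave 2.1, 0.546 and 0 CPM and was not tested.

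A further list of 5 genes held the non-integrin laminin receptors DAG1, BCAM and RPSA and the sarcoglycans SGCB and SGCE. In each species 4 of the 5 were tested, and SGCB had no values in the rhesus monkey. BCAM, which binds LAMA5, was higher in Sertoli, mural and endothelial cells in both species and lower in stromal, immune and germ cells, with 520.5, 532 and 388 CPM in baboon Sertoli and 44, 52.8 and 43.2 in stromal cells. Its rhesus values were 601, 438 and 455 and 87, 52.8 and 56 CPM. In germ cells 3 of the 4 were lower and 1, RPSA, which is also a ribosomal protein, was higher in both species. Of all genes, 23.2% in baboons and 17% in rhesus monkeys were lower there, and 28.9% and 28.8% were higher.

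Of 16 proteins that activate integrins or link them to actin, 13 were tested in each species. Mural cells had 6 higher in baboons and 7 in rhesus monkeys (9.21% and 5.78% of all genes), endothelial cells 6 and 7 (17.9% and 12.4%). No gene of the list was lower in these classes by edgeR or DESeq2, and in the rhesus monkey 1 in each class had an unadjusted p under 0.05 in that direction. In germ cells 6 and 5 were lower (23.2% and 17% of all genes), and 1 and 2 were higher (28.9% and 28.8%). LIMS2, a partner of integrin-linked kinase, gave 135, 125 and 120.0 and 142, 282 and 309 CPM in endothelial cells and at most 5.13 CPM in Sertoli cells. Mural cells held 175, 150 and 58.5 and 91.6, 99.8 and 103 CPM of LIMS2, above the endothelial cells in libraries 1A and 1B. VCL, or vinculin, was higher in Sertoli cells, at 132, 124 and 119 and 117, 167 and 171 CPM, and lower in germ cells, at 10.2, 19.8 and 12.6 and 7.34, 22.8 and 9. Baboon mural cells held 97.5, 131 and 161 CPM of VCL, above the Sertoli cells in library 1B and baboon 2. PARVG, the leukocyte parvin, was higher in immune cells of both species, at 66.4, 0 and 72.1 and 34.2, 36.8 and 63.2 CPM, beside ITGB2.

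Of 13 other integrin ligands, 6 were tested in each species. ICAM2, which ITGAL with ITGB2 binds, gave 117, 139.8 and 104 and 37, 109 and 118 CPM in endothelial cells, and 4 of the 6 were higher in rhesus immune cells (10.8% of all genes). FN1, the fibronectin ligand of ITGA5 and ITGA4, differed between animals there, with 65, 1323 and 1377 CPM. Lymphoid cells were found in rhesus 1 alone, and their part in this was not tested. MFGE8, a ligand of ITGAV, was highest in mural cells, at 1072, 879.8 and 732 and 484, 263 and 288 CPM. Of 4 tetraspanins that partner with integrins, CD9 and CD151 were higher in endothelial and lower in stromal cells in both species.

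The study picked MAP2K2, RAC3 and PAK4, as genes of integrin adhesion, and CIB1, as a gene of cell migration. It took them from spermatogonial stem cells of these libraries and of human samples, compared with other spermatogonia. The comparison here, with other cell classes, is a different one on the same libraries, so it is not independent evidence on that choice. All 4 were higher in germ cells than in the mean of the other classes in both species, where 28.9% and 28.8% of all genes were. Sertoli cells also had 2 of the 4 higher in each species (27.1% and 15.3% of all genes), and 1 lower in the baboon (10.8%). RAC3, a small GTPase, was among those higher in Sertoli cells, at 220.4, 230.5 and 317 and 198, 264 and 276 CPM. It gave 192, 218 and 210.1 and 263, 201 and 126 CPM in germ cells.

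Set side by side, 22 members were described in both species, and 16 of them had the same highest class. The 6 that differed were LAMC1, LAMC3, ITGA6, ITGA9, ITGAV and ITGAE. Some highest classes rest on few UMIs, such as immune cells for baboon ITGAX and endothelial cells for rhesus LAMC1 and ITGAV. In the endothelial cells of rhesus 1, 1 UMI equalled 6.17 CPM. The share of all genes with the same highest class was not counted. For ITGA6 the first 2 classes were Sertoli and endothelial in both species, in opposite order, and for LAMC3 mural and stromal. Of 15 members tested in both, 5 were called in Sertoli cells of both species, 6 in stromal and 5 in mural cells. In endothelial cells 6 were called in both, in immune cells 2 and in germ cells 6. Each of these pairs had the same direction. Shared calls were not counted over all genes, so these counts have no background to be read against. Within a species, 14 of 26 baboon and 10 of 25 rhesus members had the same highest class in all 3 libraries. The other low members, ITGA2B, ITGB3 and ITGAD, gave 18, 2 and 8 UMIs in the baboon, and ITGA2B, ITGAL and ITGB7 gave 36, 42 and 24 in the rhesus monkey.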

How the data were processed

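The 6 libraries were made from dissociated testis with 10x Genomics 3′ kits, 3 per species from 2 animals. The authors made the deposited UMI counts with Cell Ranger 3.1.0 against Panubis1.0 (baboon) and Mmul_10 (rhesus). The deposited values are raw counts of all barcodes, with no cell calling; the submitters' processing notes also name Seurat 3.2.3, which was not used here. Cells were called from a UMI cutoff (percentile 99 of the top 5000 barcodes, divided by 10) or by a profile that differed from free RNA (barcodes ranked 45001 to 90000, at least 500 UMIs, 10000 simulations, adjusted p at most 0.01), with at least 200 genes (scipy 1.17.1 and numpy 2.4.6 under Python 3.11.15). Total counts per library set the depth, and the floor of 3 UMIs covers counting error only.

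A cell joined a class when it held at least 3 distinct markers of its list, at least 1000 CPM of them and at least 2 times the UMIs of every other list. Leydig, glia and erythroid lists competed too, and those cells were left out, among them 11 baboon and 230, 36 and 29 rhesus Leydig cells. The rule was set after marker UMIs were seen and before member genes were. Members and lists were chosen with earlier results of these data known. A member was described with its values where the 6 classes held at least 50 UMIs, and a list gene where it passed the test, at most 4 per list and class by size. Doublets were marked at 0.8% per 1000 cells by a score against simulated doublets and kept.

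Sums per animal and class of at least 10 cells were fitted in edgeR 4.0.16 (limma 3.58.1, R 4.3.3) with TMM and its filter on low counts, and with DESeq2 1.42.0 as an alternative. Animal was a block because all 6 classes of an animal come from the same animal: deviations of the animals correlated between classes in all 15 pairs (r 0.07 to 0.71 in the baboon, 0.04 to 0.58 in the rhesus monkey). The fit was tested on simulated data in which 200 genes of 1 class were changed by 2 on the log2 scale. It found 40.5% (baboon immune cells) to 87.5% (rhesus stromal cells) of them. Of its calls, 1.95% (baboon germ cells) to 7.95% (baboon immune cells) were unchanged genes. Apart from those 200 genes, all simulated classes and animals had 1 profile, with random spread only, unlike the real data. Clusters used as an alternative were made in each library alone with scanpy 1.11.5 (2000 genes without members, 30 components, resolution 1).

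Coordinates are from RefSeq annotation of Panubis1.0 and Mmul_10. No protein sequences were used here. Results on 1 member and 2 promoter windows are not reported here.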

Additional observations from a re-analysis of the deposited data

How the results depend on the processing

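Of 154 recalculated counts of called genes, both directions together, 149 stayed within 1.5 times the reported one. With the UMI cutoff alone, the members called fell from 15 to 8 in baboon mural cells, from 6 to 3 in immune cells and from 8 to 4 in germ cells. Baboon 2 then held 4 mural and 3 immune cells, under the minimum of 10, so those classes rested on baboon 1 alone, and the cause in germ cells was not tested. With no replicate block, baboon immune cells had 3 members called, and no other such count moved by over 1.5 times. Taken by direction, 6 of 132 counts of higher members and 27 of 132 counts of lower members moved by over 1.5 times. Baboon Sertoli cells had 4 lower members, which became 11 with DESeq2, 8 with clusters and 1 with the UMI cutoff alone. Baboon stromal cells had 2, which ranged from 1 to 6. Baboon endothelial cells had 2, which became 1 with no replicate block and 0 with clusters or the UMI cutoff alone, and the 3 of immune cells became 0 or 1 under 6 alternatives. Baboon immune cells had 3 higher members, which became 5 with clusters and 6 with no filter. With no filter on low counts, rhesus immune cells had 7 called where 4 were reported. ITGAL and ITGB7, which had been under the filter, were called higher. LAMB2, which had been tested before, was called lower. Of 1280 recalculated differences of single members that had been called, 1129 kept their direction and call, 91 kept their direction but lost the call, 60 moved by more than the spread between animals with no test, and none reversed. Leaving out baboon 2 or rhesus 1 left 1 animal, which gave values and no test. Shallow classes limit what can be seen: in baboon immune cells the simulated test found 40.5% of genes changed by 2 on the log2 scale.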
